A study of Saccharomyces cerevisiae with 15 samples.

Results

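The 5 ALD genes of Saccharomyces cerevisiae encode the aldehyde dehydrogenases that turn acetaldehyde and related aldehydes into acids. ALD2, ALD3, ALD4, ALD5 and ALD6 were taken as the family, and a probe set was included when the annotation of the YG_S98 array named one of them. This gave 5 of 5923 annotated genes and 7 of 9335 probe sets. ALD2, ALD3, ALD4 and ALD5 each had 1 probe set of their own, ALD6 had 2, and 1 further probe set was annotated to both ALD2 and ALD3.

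The arrays measured total RNA of a pmi40 deletion strain derived from CEN.PK113-7A. PMI40 encodes the isomerase that makes mannose 6-phosphate from fructose 6-phosphate, so a strain without it needs mannose from its medium for protein glycosylation and the cell wall. All 15 arrays came from aerated batch cultivation of this strain in mineral medium with 15 g/L glucose, sampled 6 h after inoculation, and the groups differed only in initial mannose: 0.75, 1, 1.5, 3 or 5 g/L, with 3 arrays each. The parent strain was not analysed here, so every group carried the deletion and the comparisons are between mannose concentrations. RNA came from whole cultures, in which fewer expressing cells and less RNA per cell cannot be told apart.

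Aldehyde dehydrogenases complete the pyruvate dehydrogenase bypass, in which pyruvate decarboxylase makes acetaldehyde and acetate goes on to acetyl-CoA. ALD6 encodes the main cytosolic enzyme of this route, which uses NADP and so also makes NADPH. ALD4 encodes the main mitochondrial enzyme, known for its repression by glucose and its role in growth on ethanol, and ALD5 a minor mitochondrial one. ALD2 and ALD3 are neighbouring, nearly identical cytosolic genes, known for induction by stress through the factors Msn2 and Msn4 and for oxidising 3-aminopropanal to beta-alanine, a precursor of pantothenate and coenzyme A.

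Signals are in linear array units on a common scale, with errors between arrays as standard deviations. The background was 13.5, the 95th percentile of 13 control probe sets for mouse and antisense sequences. Differences are on the log2 scale with standard errors, and each was tested with limma, with p-values adjusted by Benjamini-Hochberg over 6957 probe sets and a threshold of 0.05. The labels leave unstated whether the arrays of a group came from separate cultures, and their records share a sample code for each concentration. The p-values therefore measure only the spread between these arrays.

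Arrays of a concentration correlated at 0.955 to 0.981 across probe sets. The median signal was 20.1 to 22.1 at 0.75 g/L and 23.3 to 27.0 on the other arrays, and over all probe sets the median difference of the other groups from 0.75 g/L was 0.10 to 0.13. The 0.75 g/L arrays shared a fluidics run, as inferred from station and time of day, with only 1 other array, 3 g/L replicate 1, and the records of these 4 arrays and of 5 g/L replicate 2 describe a run that was not completed. PMI40 itself gave 258 ± 21.2 at 0.75 g/L, 159 ± 43.7 at 1 g/L and 241 ± 11.4 at 5 g/L (n = 3 each). No source used here places its probes relative to the deletion, so this signal is no check of the genotype.

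The family split by member. ALD3 had its highest signal at 0.75 g/L, was 15.7-fold lower at 1 g/L, remained low to 3 g/L and was 4.35-fold higher at 5 g/L than at 3 g/L. The weak ALD2 signal also fell from 0.75 to 1 g/L, where 1 of its 3 arrays was above background. ALD4 was 2.17-fold lower at 1 than at 0.75 g/L and stayed lower at the other concentrations, while ALD5 was 1.53-fold higher at 1 than at 0.75 g/L. No difference of ALD6 passed. In the F-test over the 5 concentrations, 4 of the 5 genes passed, against 46.5% of all probe sets tested.

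**Figure D1:**
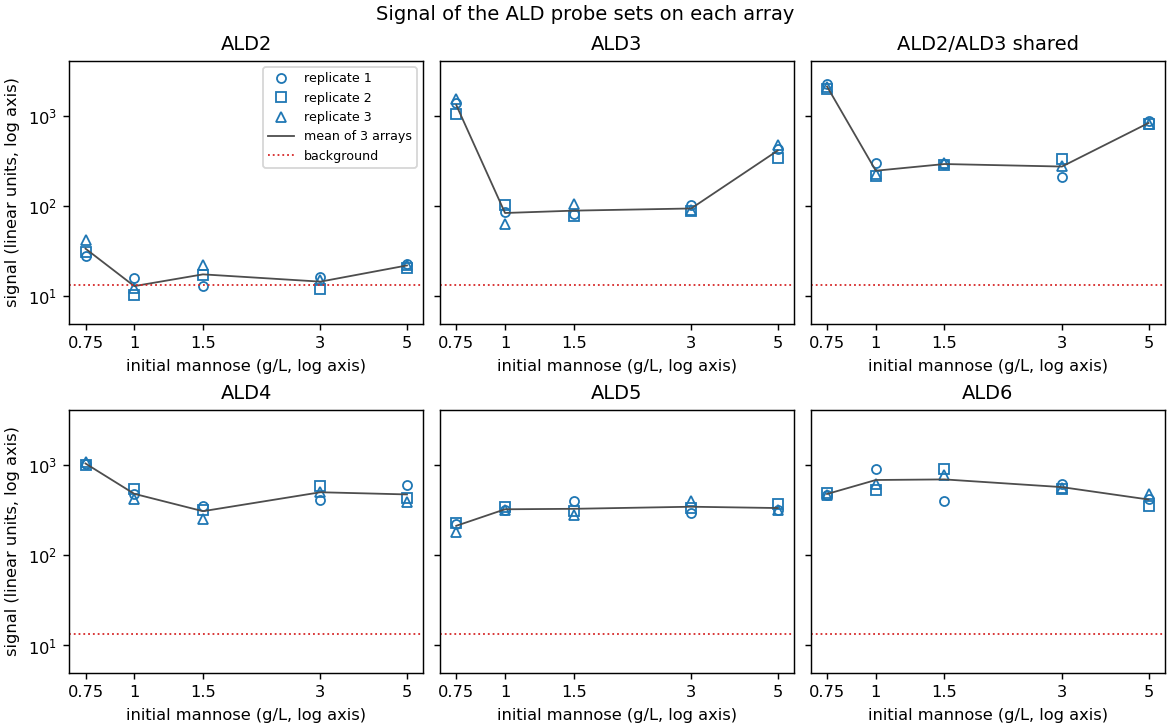
Signal of each ALD probe set on each array (linear array units on a log axis) against initial mannose (g/L, log axis). Open symbols are the 3 arrays of a concentration, the line joins their means and the dotted line marks the background of 13.5. ALD3 and the shared probe set are highest at 0.75 g/L, low from 1 to 3 g/L and intermediate at 5 g/L, ALD2 lies close to background from 1 to 3 g/L, and the ALD6 arrays scatter most at 1 and 1.5 g/L.

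ALD3 (YMR169C, chromosome XIII of the R64 assembly) gave 1358.6, 1034.7 and 1524.5 on the 3 arrays at 0.75 g/L. With 1 g/L the arrays read 84.8, 103.3 and 62.8, those with 1.5 g/L 82.3, 77.9 and 106.2, and those with 3 g/L 103.5, 86.9 and 91.1. At 5 g/L the arrays read 423.4, 340.6 and 466.6. The lowest array at 0.75 g/L was above every array elsewhere, the 5 g/L arrays lay between that group and the rest without overlap, and the arrays from 1 to 3 g/L overlapped with each other.

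The mean ALD3 signal was 1306 ± 249 at 0.75 g/L and 83.6 ± 20.3 at 1 g/L (n = 3 each). The difference was -3.98 ± 0.21 log2 (limma, adjusted p = 2.19e-08), the 8th largest fall among the 6957 probe sets. Signals at 1.5 and 3 g/L, 88.8 ± 15.2 and 93.8 ± 8.6, were lower than at 0.75 g/L by similar amounts (-3.87 and -3.78 log2, adjusted p = 3.35e-08 and 2.27e-08), and these comparisons share the 0.75 g/L arrays. From 1 to 1.5 g/L and from 1.5 to 3 g/L no difference passed (0.10 and 0.09 log2, adjusted p = 0.915 and 0.867).

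Above 3 g/L ALD3 rose again. The mean at 5 g/L was 410.2 ± 64.0, higher than at 3 g/L by 2.12 ± 0.21 log2 (limma, adjusted p = 0.000171), the 6th largest rise of all probe sets in a comparison in which 0.977% of them passed in either direction. It was also 4.96-fold higher than at 1 g/L (2.31 ± 0.21 log2, adjusted p = 3.97e-06), and 3.17-fold lower than at 0.75 g/L (-1.66 ± 0.21 log2, adjusted p = 3.16e-05). ALD3 had the 21st smallest p of the F-test over all probe sets (adjusted p = 2.27e-08). Its order was thus 1, 1.5 and 3 g/L, which did not pass against their neighbours, then 5 g/L, then 0.75 g/L, each of these last steps passing.

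The probe set shared by ALD2 and ALD3 cannot be assigned to either gene, and its signal may hold both transcripts. It read 2218.1, 1978.1 and 2086 at 0.75 g/L, then 296.3, 214.2 and 225.6 on the 1 g/L arrays. With 1.5 g/L it read 290.5, 284.2 and 298. At 3 g/L the arrays gave 209.3, 334.4 and 274.9, and at 5 g/L 867.5, 797.9 and 814.6. The order of groups was high, low, intermediate as for ALD3, and 0.75 and 5 g/L overlapped with no other group. It was 8.61-fold lower at 1 than at 0.75 g/L (-3.11 ± 0.18 log2, limma, adjusted p = 2.79e-08) and 3.08-fold higher at 5 than at 3 g/L (1.62 ± 0.18 log2, adjusted p = 0.000285).

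A measure of RNA quality moved in part with ALD3. The 3'/5' signal ratio of the control transcript SPT15, which reads how far the RNA or its copy reaches, was 4.19 to 5.26 at 0.75 g/L and 4.44 to 6.90 at 5 g/L, against 2.81 to 4.38 at the concentrations between. The ranges of 0.75 g/L and the middle groups thus overlapped. For ACT1 the ratio was 1.37 to 2.36 over all arrays, with overlapping ranges. For SRB4 it was 1.75 to 5.90, also with overlapping ranges. The SRB4 group medians from 0.75 to 5 g/L were 2.69, 3.95, 3.16, 2.49 and 2.92. The part of RNA quality in the ALD3 result was not tested. Within fluidics runs ALD3 showed both differences: in the run of the 0.75 g/L arrays, the single 3 g/L array differed by -3.64 ± 0.31 log2 (adjusted p = 1.3e-05), and in the run with 2 arrays at 3 and 2 at 5 g/L the difference was 2.09 ± 0.27 (adjusted p = 0.00683), in limma fits that pool the spread of all groups. The 1 g/L arrays formed a run of their own, so that concentration and its run cannot be told apart within a run.

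ALD2 (YMR170C), next to ALD3 on chromosome XIII, gave 28.2, 30.7 and 42.3 at 0.75 g/L. With 1 g/L the arrays read 16.1, 10.4 and 12.5, those with 1.5 g/L 13, 17.1 and 22.5, and those with 3 g/L 16.2, 12.2 and 15.3. At 5 g/L the arrays read 22.9, 20.7 and 22.4. The 0.75 g/L arrays were above all others, and from 1 to 3 g/L the signal was close to background, with 1, 2 and 2 of 3 arrays above 13.5.

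ALD2 was lower than at 0.75 g/L (33.7 ± 7.5, n = 3) at 1 g/L (13.0 ± 2.9, fitted difference -1.38 ± 0.23 log2, limma, adjusted p = 0.000303), and also passed at 1.5 and 3 g/L (-0.96 and -1.20 log2, adjusted p = 0.0049 and 0.000873). Because the lower groups were only partly above background, the sizes of these differences are uncertain and no fold is given. At 5 g/L the mean was 22.0 ± 1.2, a difference from 0.75 g/L of -0.60 ± 0.23 that did not pass (adjusted p = 0.0556) but did in 8 of 27 alternatives, among them quantile normalization and median scaling (adjusted p = 0.0131 and 0.0101). It was higher at 5 than at 1 g/L (fitted difference 0.78 ± 0.23 log2, adjusted p = 0.0226), a call lost in 6 of 28 alternatives, among them leaving out 1 g/L replicate 2 (adjusted p = 0.0871). Against 3 g/L the 5 g/L value, 0.60 ± 0.23 log2, did not pass (adjusted p = 0.406). No neighbours in its order of levels (1, 3, 1.5, 5, 0.75 g/L) passed. Where the array design places the ALD2 and ALD3 probes was not used here, so cross-hybridisation between these nearly identical genes was not tested, and the ALD2 values are uncertain for that reason.

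ALD4 (YOR374W, chromosome XV), the main mitochondrial enzyme, gave 1014.6, 1002.3 and 1068.9 at 0.75 g/L. With 1 g/L the arrays read 471.8, 536.8 and 417.9, those with 1.5 g/L 352.3, 315.5 and 248.6, and those with 3 g/L 402.1, 582.4 and 500. At 5 g/L the arrays read 590.7, 428.9 and 384.7. Every 0.75 g/L array was above all others, and every 1.5 g/L array was below those of the other groups, while 1, 3 and 5 g/L overlapped.

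The ALD4 mean fell from 1029 ± 35.4 at 0.75 g/L to 475.5 ± 59.5 at 1 g/L (n = 3 each; -1.12 ± 0.20 log2, limma, adjusted p = 0.000529), a call lost with the fluidics session as a block (-0.73, adjusted p = 0.203). The largest difference was at 1.5 g/L, where ALD4 was 3.40-fold lower (-1.77 ± 0.20 log2, adjusted p = 9.23e-06). At 3 and 5 g/L it was lower than at 0.75 g/L by 1.07 ± 0.20 and 1.16 ± 0.20 log2 (adjusted p = 0.000724 and 0.00039). The higher values at 3 and 5 than at 1.5 g/L, 0.69 ± 0.20 and 0.61 ± 0.20 log2, did not pass (adjusted p = 0.0679 and 0.0582). Both passed with no floor, with a filter at the 50th percentile and with an intensity trend in the variance (adjusted p = 0.0325 to 0.0338). Between 3 and 5 g/L, the step at which ALD3 rose, ALD4 differed by -0.09 ± 0.20 log2 (95% confidence interval -0.51 to 0.34, adjusted p = 0.942). Whether ALD3 and ALD4 differed from each other in this step was not tested. In the order of its levels, 1.5, 5, 1, 3 and 0.75 g/L, only the last step passed with the settings used throughout.

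ALD5 (YER073W, chromosome V), the minor mitochondrial enzyme, ran the other way. The 0.75 g/L arrays read 223, 228.7 and 180.1, and the 1 g/L arrays 312.7, 336.1 and 313.4. Those with 1.5 g/L read 391.3, 304.3 and 278.2, those with 3 g/L 291.3, 334.6 and 400.9, and those with 5 g/L 314.7, 363.3 and 315.2. The 0.75 g/L arrays were below all others, and the remaining groups overlapped.

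The ALD5 mean rose from 210.6 ± 26.6 at 0.75 g/L to 321 ± 13.3 at 1 g/L (n = 3 each; 0.61 ± 0.17 log2, limma, adjusted p = 0.0114). At 1.5, 3 and 5 g/L it was higher than at 0.75 g/L by 0.62, 0.70 and 0.66 log2 (adjusted p = 0.0121, 0.00553 and 0.0079). Against the median probe set these differences were 0.50, 0.52, 0.58 and 0.53 log2. With each array scaled to its median signal the difference at 1 g/L was 0.41 log2 and did not pass (adjusted p = 0.0647), and only that at 3 g/L did (adjusted p = 0.0438). The call at 1 g/L was also lost with the fluidics session as a block (0.72 log2, adjusted p = 0.173) and with the fluidics station as a block (0.40 log2, adjusted p = 0.268). Without 0.75 g/L replicate 3 it was lost too (0.51 log2, adjusted p = 0.0534). The F-test of ALD5 (adjusted p = 0.0161) did not pass without 0.75 g/L replicate 3 (adjusted p = 0.110), and within the fluidics run of the 0.75 g/L arrays the 3 g/L array differed by 0.48 ± 0.24 log2 (adjusted p = 0.162). Between 1 and 5 g/L no step passed, and the difference of 5 from 3 g/L, -0.04 ± 0.17 log2, had a 95% confidence interval of -0.40 to 0.33.

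ALD6 (YPL061W, chromosome XVI), the main cytosolic enzyme, was read by probe sets that disagreed. One gave 0.6 to 7.9 on the 15 arrays, below background throughout, and was left out of the tests. The other gave 464.8, 490.7 and 464.4 on the 0.75 g/L arrays and 900.4, 522.6 and 605 on those with 1 g/L. The 1.5 g/L arrays read 399.2, 890.3 and 769.1, those with 3 g/L 605.6, 538.2 and 548, and those with 5 g/L 421.5, 344.7 and 467.7. The arrays at 1 and 1.5 g/L scattered widely, and the 5 g/L arrays lay below those of 1 and 3 g/L without overlap.

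In the F-test ALD6 did not pass (limma, adjusted p = 0.15). Its difference between 1 and 0.75 g/L was 0.48 ± 0.27 log2, with a 95% confidence interval of -0.10 to 1.05 (adjusted p = 0.181), so that a change of up to about 1 log2 unit lay within the error. The largest of its 10 differences was that of 5 from 1 g/L, -0.69 ± 0.27 log2 (adjusted p = 0.0777), with no overlap between 421.5, 344.7 and 467.7 and the 1 g/L arrays. Without 1.5 g/L replicate 1 the F-test passed (adjusted p = 0.0106), as did 1.5 against 0.75 g/L (0.81 log2, adjusted p = 0.0138), 5 against 1.5 g/L (-1.02 log2, adjusted p = 0.0107) and 5 against 1 g/L (adjusted p = 0.0213). With every array kept, the last of these also passed with no floor (log2 of the value plus 10), with a filter at the 50th percentile and with an intensity trend in the variance (adjusted p = 0.0458, 0.0461 and 0.0468).

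**Figure D2:**
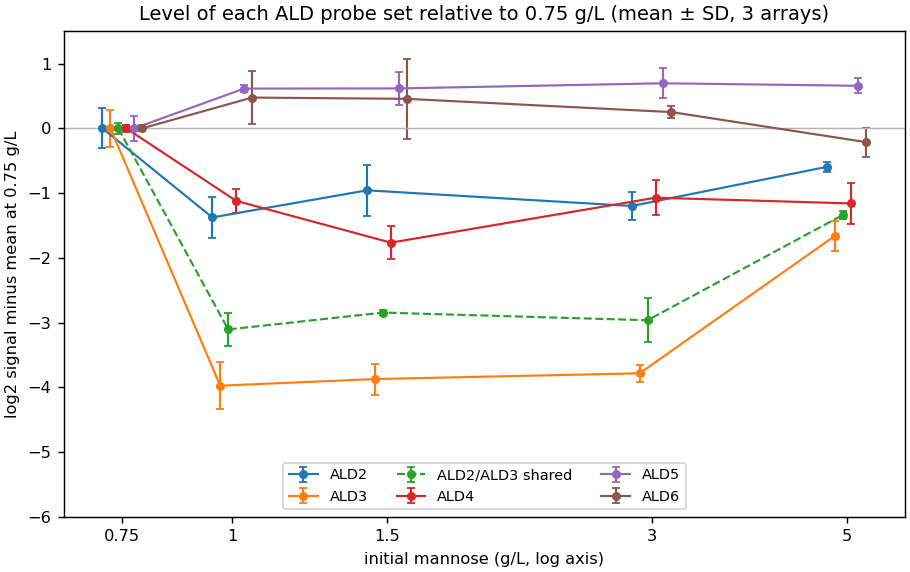
Level of each ALD probe set relative to its mean at 0.75 g/L (log2) against initial mannose (g/L, log axis). Points are means of 3 arrays and bars are standard deviations. ALD3 falls by 3.98 and the shared probe set by 3.11 at 1 g/L, ALD4 lies 1.07 to 1.77 and ALD2 0.60 to 1.38 log2 units below 0, and ALD5 lies above 0 at the 4 higher concentrations.

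The family was compared over all 10 pairs of concentrations, and 19 of the 50 differences of single genes passed, against 20.0% of those of all probe sets. At 1 against 0.75 g/L, ALD5 was higher and ALD2, ALD3 and ALD4 lower, 4 of 5 genes, in a comparison in which 37.4% of all probe sets passed. The same 4 genes passed in the same directions at 1.5 and at 3 against 0.75 g/L, where 33.2% and 35.3% of probe sets did. At 5 against 0.75 g/L, ALD5 was higher and ALD3 and ALD4 lower, and 35.6% of probe sets passed. These 4 comparisons share their 0.75 g/L arrays.

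Among the higher concentrations fewer genes passed. No member did at 1.5 against 1 g/L, 3 against 1 g/L or 3 against 1.5 g/L, where 0.402%, 16.2% and 4.10% of probe sets passed in limma. ALD4 was the member with an unadjusted p below 0.05 there, at 1.5 against 1 g/L (-0.65 ± 0.20 log2) and at 3 against 1.5 g/L. ALD2 and ALD3 were higher at 5 than at 1 g/L, where 23.9% of probe sets passed. ALD3 was the one member to pass at 5 against 1.5 g/L, with 13.2% of probe sets, and at 5 against 3 g/L.

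**Figure D3:**
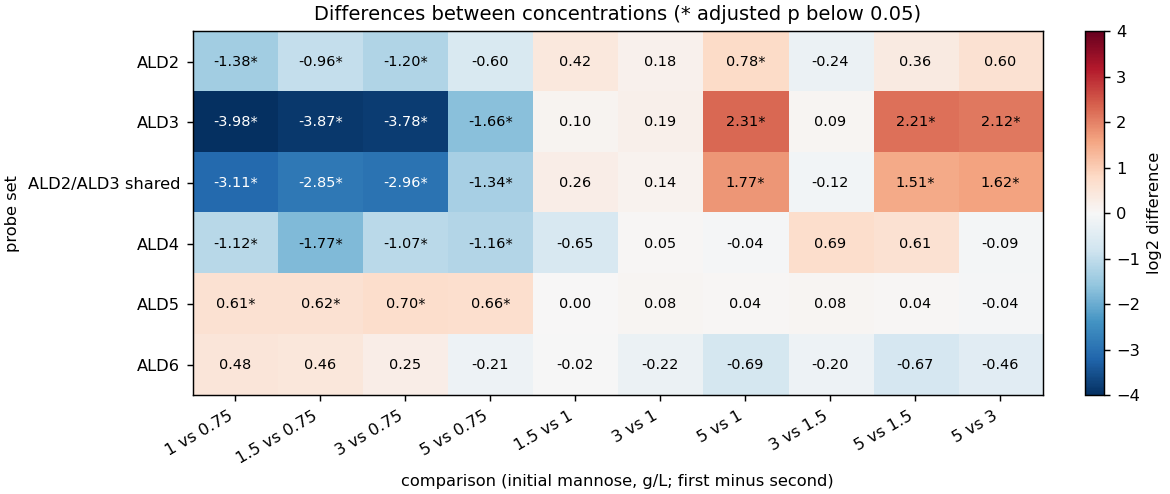
Differences (log2, first minus second concentration) of the 6 tested ALD probe sets in the 10 pairs of initial mannose concentrations (g/L). Colour and printed value give the difference and an asterisk marks an adjusted p below 0.05. The passing differences lie in the 4 columns against 0.75 g/L and in columns of 5 g/L. At 5 g/L, ALD3 and the shared probe set pass against 1, 1.5 and 3 g/L too, and ALD2 passes against 1 g/L only.

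With limma's slope on log2 mannose, 0 of 5 members passed, against 23.6% of all probe sets, and ALD5 alone had an unadjusted p below 0.05 (0.17 ± 0.07 log2 per doubling, adjusted p = 0.0904). The slope of ALD3 was -0.25 ± 0.39 per doubling over all groups (adjusted p = 0.688). Without the 0.75 g/L arrays it was 0.88 (adjusted p = 0.00289), the opposite sign.

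Members were also compared array by array, as a description over arrays that share their groups. ALD2 and ALD3 correlated at 0.88 over the 15 arrays and at 0.71 over the 12 arrays without 0.75 g/L. ALD3 and ALD4 correlated at 0.76 over all arrays and at 0.18 without those at 0.75 g/L, and ALD3 and ALD5 at -0.73 and -0.02. The correlation of ALD3 with ALD2 was thus less tied to the 0.75 g/L arrays than those with ALD4 and ALD5. That of ALD3 with ALD6 did not weaken without them (-0.53 over all arrays, -0.59 without 0.75 g/L).

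The genes with the most similar profiles differed between members. They were picked by correlation over all 15 arrays. These correlations were not recomputed without the 0.75 g/L arrays, on which they may largely rest. For ALD3 they were HSP104, a disaggregase of the heat shock response (Pearson r = 0.983 over 15 arrays), MSC1 (0.973) and SIP18, a desiccation stress gene (0.971). For ALD2 they were YNL195C (0.917), HAB1 (0.913) and the stress gene DDR2 (0.913). ALD4 was closest to YTP1 (0.915), to PYK2, a glucose-repressed pyruvate kinase (0.915), and to COQ4 of ubiquinone synthesis (0.911). ALD5 was closest to the ribosome assembly genes NSA1 (0.956) and NOP4 (0.941) and to TAH18 (0.940). ALD6 had weaker matches in SAM2, an S-adenosylmethionine synthetase (0.804), CSI2 (0.783) and the ribosomal protein gene RPS15 (0.769). Some means were under background: HAB1 from 1 to 5 g/L (2.5 to 11.7), NOP4 at 0.75 g/L (7.8) and CSI2 at 0.75 and 5 g/L (8.6 and 10.1). HSP104 fell from 446 ± 18.8 at 0.75 g/L to 158 ± 34.7 with 1 g/L and read 256 ± 13.9 with 5 g/L. These groups stood in the order seen in ALD3, with smaller steps, while the lowest HSP104 mean was at 3 g/L (153.5). Because HSP104 was picked for its correlation with ALD3 on these arrays, this likeness is no separate result.

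General stress genes, a list of 18 that respond to Msn2 and Msn4, were set beside ALD3 and ALD2. Of 17 tested, 15 were lower at 1 than at 0.75 g/L and none higher, where 15.2% of all probe sets were lower and 22.1% higher, with a list median of -1.52 log2 against 0.11 for all probe sets. TFS1, an inhibitor of carboxypeptidase Y, fell from 1885 ± 214 to 412 ± 50.2 (limma, F-test adjusted p = 5.38e-08), the glycogen phosphorylase gene GPH1 from 559.5 ± 33.0 to 53.6 ± 15.0 (7.58e-08) and the trehalose synthase gene TSL1 from 2407 ± 144 to 907 ± 30.9 (9.05e-08). At 5 against 3 g/L, 3 of 17 were higher and none lower, with a median of 0.38, where 0.877% of probe sets were higher and 0.101% lower. The 3 were HSP26, HSP104 and SSA3, which encode heat shock proteins. HSP26 alone of them passed under quantile normalization, where 3 genes of the list were higher. None of them did with arrays scaled to their medians, where 1 other gene of the list was higher. At 5 g/L TFS1, GPH1 and TSL1 read 433.5 ± 30.2, 48.5 ± 6.7 and 528 ± 16.5.

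Genes of carbon use that glucose represses were set beside ALD4, and 12 of 14 were tested. At 1 against 0.75 g/L, 9 were lower and none higher (median -1.19 log2), where 15.2% of all probe sets were lower and 22.1% higher. Of the 9, JEN1 was under the background of 13.5 on average in both groups (12.8 and 4.9). MLS1 and PCK1 were under it at 1 g/L (6.0 and 12.8), so the sizes of these falls are uncertain. At 5 against 3 g/L, 4 were higher and none lower (median 0.51), where 0.877% of probe sets were higher and 0.101% lower. The 4 were the glyoxylate cycle genes ICL1, MLS1 and MDH2 and the carnitine acetyltransferase gene CAT2. At 0.75, 1 and 5 g/L, ICL1 read 27.5 ± 4.7, 33.6 ± 10.1 and 293 ± 30.2, and MLS1 15.3 ± 0.65, 6.0 ± 1.2 and 43.9 ± 6.0. HXK1, the hexokinase repressed by glucose, fell from 2474 ± 157 at 0.75 g/L to 822 ± 154 at 1 g/L and read 231 ± 24.4 at 5 g/L.

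The other genes of the ethanol and acetate route, 11 of 12 tested, split at 1 against 0.75 g/L into 1 higher, 5 lower and 5 that did not pass (median -0.09 log2). In that comparison 22.1% of all probe sets were higher and 15.2% lower. ACH1, which moves coenzyme A between acetate and other acids, fell from 1177 ± 105 to 348 ± 67.7 (limma, F-test adjusted p = 2.86e-06). Among the pyruvate decarboxylases, which make the acetaldehyde that the family oxidises, PDC6 fell from 48.7 ± 1.6 to 2.8 ± 2.9, within background, and read 44.0 ± 5.5 at 5 g/L (F-test adjusted p = 5.2e-06). PDC5, by contrast, rose from 46.9 ± 3.6 to 76.4 ± 4.4 and read 39.5 ± 6.7 at 5 g/L. At 5 against 3 g/L none of the 11 passed in limma, and 1 was higher at an unadjusted p below 0.05.

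**Figure D4:**
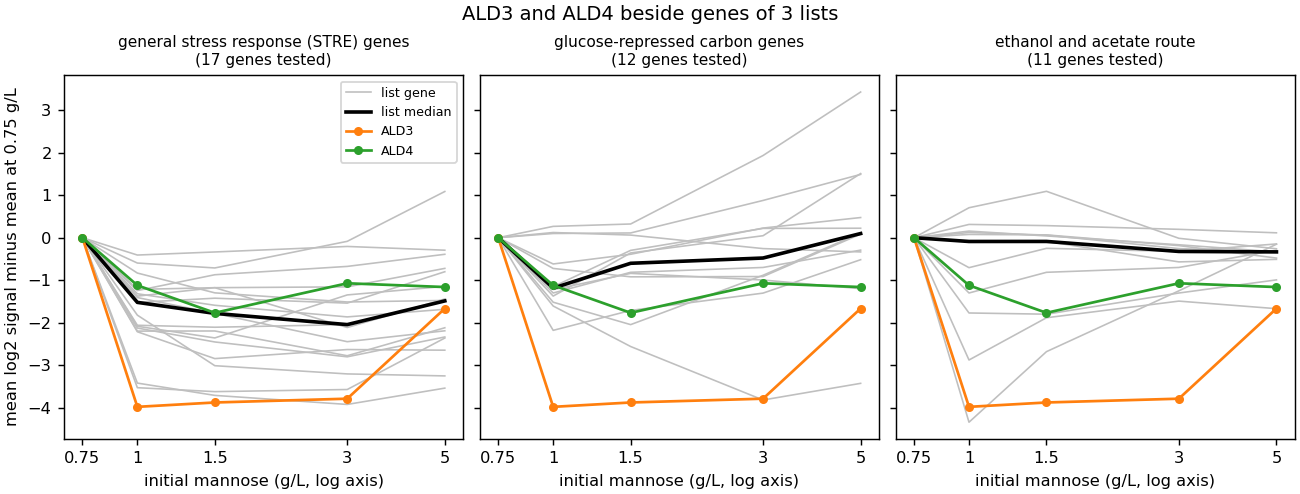
Mean log2 signal relative to 0.75 g/L against initial mannose (g/L, log axis) for the genes of 3 lists (grey), the list median (black), ALD3 (orange) and ALD4 (green). The medians at 1 g/L are -1.52 for the stress genes, -1.19 for the glucose-repressed genes and -0.09 for the ethanol and acetate route, beside -3.98 for ALD3 and -1.12 for ALD4.

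On the route from polyamines to beta-alanine and pantothenate, which ALD2 and ALD3 serve, all 8 genes were tested. At 1 against 0.75 g/L, 3 were higher and 1 lower (median 0.34 log2), where 22.1% of all probe sets were higher and 15.2% lower. The lower gene of the list was FMS1, the polyamine oxidase that makes the aldehyde used by ALD2 and ALD3. FMS1 fell from 191 ± 10.5 to 64.1 ± 12.4 and, at 266 ± 19.8 at 5 g/L, was also the one gene of the list that was higher there than at 3 g/L (1.03 log2, limma, adjusted p = 0.0191). The S-adenosylmethionine decarboxylase gene SPE2 rose from 83.0 ± 12.7 to 195 ± 8.2 and the pantothenate synthase gene PAN6 from 32.1 ± 5.9 to 52.9 ± 3.8.

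Genes of cytosolic NADPH routes other than ALD6 were all tested, 6 genes, of which 2 were higher and 2 lower at 1 than at 0.75 g/L (median -0.03 log2). The shares of all probe sets there were 22.1% higher and 15.2% lower. SOL3, 1 of the 2 higher, and SOL4, 1 of the 2 lower, encode 6-phosphogluconolactonases, which make no NADPH themselves. GND1, the main 6-phosphogluconate dehydrogenase gene, rose from 1038 ± 50.2 to 1780 ± 127 and read 719 ± 58.8 at 5 g/L. Its minor isoform GND2 fell from 189 ± 19.3 to 20.0 ± 3.0, and the 6-phosphogluconolactonase gene SOL4 from 2959 ± 170 to 634 ± 45.4. SOL4 was the one gene of the 6 to pass at 5 against 3 g/L, where it was higher (332 ± 27.2 and 528 ± 77.4), but not with arrays scaled to their medians.

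Of 5 further genes of the aldehyde dehydrogenase superfamily, 2 were lower at 1 than at 0.75 g/L and 3 did not pass (median -0.14 log2). Among all probe sets 15.2% were lower there and 22.1% higher. UGA2, the succinate semialdehyde dehydrogenase gene of GABA breakdown, fell from 157 ± 33.8 to 26.0 ± 6.4 and read 80.0 ± 8.5 at 5 g/L (limma, F-test adjusted p = 5.66e-06). HFD1, a fatty aldehyde dehydrogenase gene, fell from 1404 ± 71.7 to 640.1 ± 174 and read 638 ± 35.6 at 5 g/L (0.00047). None of the 5 passed at 5 against 3 g/L, and 1 was higher at an unadjusted p below 0.05.

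Of 9 genes for transcription factors tied to the ALD genes, 4 were higher and 1 lower at 1 than at 0.75 g/L (median 0.12 log2). For all probe sets the shares were 22.1% higher and 15.2% lower. Of the factors called, MIG1, YAP1 and ADR1 passed in the same direction under quantile normalization and median scaling. MSN4 and STB5 passed under neither. MIG1, a repressor in glucose repression, rose from 20.7 ± 4.2 to 39.2 ± 3.2, and YAP1, a factor of the oxidative stress response, from 44.6 ± 1.8 to 69.2 ± 7.5. ADR1, an activator of glucose-repressed genes, was within background on average except at 5 g/L (14.7 ± 2.5). No factor passed at 5 against 3 g/L, and 1 was higher at an unadjusted p below 0.05.

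Genes beside the family on the chromosomes of the R64 assembly were examined next. With the arrays as deposited, none of those tested was called lower at 1 than at 0.75 g/L or higher at 5 than at 3 g/L, as ALD3 was. Under quantile normalization 1 of the 6 tested was lower at 1 than at 0.75 g/L. CEP3 and EAR1, which flank the ALD2 and ALD3 pair, gave F-tests with adjusted p = 0.30 and 0.882 in limma. The group means of CEP3, 7.6 to 11.2, were all under the background of 13.5, so its signal cannot show whether it shared the ALD3 pattern. MFM1 next to ALD6 was also close to background (9.8 to 14.1). Of the 6 neighbours tested out of 8, NUD1 next to ALD4 (28.6 ± 6.4 to 53.4 ± 4.8) and VTC1 next to ALD5 (315 ± 22.3 to 430.1 ± 56.7) were higher at 1 than at 0.75 g/L, VTC1 not with arrays scaled to their medians. Over all probe sets 22.1% were higher and 15.2% lower in that comparison. No neighbour passed at 5 against 3 g/L, and 1 was lower at an unadjusted p below 0.05.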

How the data were processed

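The values used were the deposited table of linear signal intensity for 9335 probe sets on 15 arrays. The authors' steps from probes to intensities, and their scaling, are not given in the sources used here. Scanner and fluidics records, without expression values, were read only for station, time of day, messages and sample codes. The 2% trimmed mean of each array was 100.09 to 100.13, so arrays were used as deposited. Values below 1.5 (the 10th percentile), 13754 including 211 of 0, were set to it and log2 transformed. Left out were 60 control probe sets and those whose mean fell under the 25th percentile, so 6957 remained, covering 5208 genes with 1 symbol. The table's annotation gave 1 symbol for 6504 probe sets, several for 328 and none for 2503. No column was left without a sample.

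Group means of all 15 arrays were fitted with limma 3.58.1 (lmFit, eBayes) in R 4.3.3, with a moderated F-test, all 10 contrasts of 2 concentrations and a separate slope on log2 mannose, each adjusted by Benjamini-Hochberg over the tested probe sets. Figures were drawn with matplotlib 3.10.9 in Python 3.11.15. The code was tested on simulated data. A gene with several probe sets was read through the one with the highest mean. Named genes were the members, PMI40, the 3 genes most correlated with each member, chromosomal neighbours, and up to 3 of each list with the smallest F-test p that passed. HSP26, SSA3, MSN4, STB5, MDH2, CAT2 and SOL3 were named after their values were seen, as members of a small count. So were JEN1, PCK1 and SPE4, for signals within background. The members and lists were chosen with earlier results of these data known. Gene names and neighbours came from RefSeq's R64 table.

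Alternatives covered scaling, floor, filter, variance model, blocks, the 6 arrays compared alone, and arrays or groups left out, 36 settings in all. Settings for the probe sets with the pattern of ALD3 were added after the data were seen. Replicate numbers did not pair arrays: of 30 same-number pairs between groups, the deviations of 2 correlated above 0.1 (range -0.24 to 0.23). The 3 arrays for each concentration limit the precision.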

Additional observations from a re-analysis of the deposited data

How the results depend on the processing

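Over the alternatives run, differences between concentrations of the members and of the shared probe set were recomputed 1724 times. Of these 1679 kept their side of the threshold, 24 no longer passed, 21 newly passed and 0 changed sign while passing. ALD3 and the shared probe set kept the F-test and every passing pair, but for pairs with 1 g/L the run block could not separate that concentration from its run. In all, 14 to 23 of the 50 differences of single genes passed, the shared probe set left out. F-tests of named genes outside the family were recomputed 778 times, of which 28 no longer passed and 12 newly passed.

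The trend depended on which arrays entered. Of the 5 members 0 passed with all arrays, 2 with the fluidics session as a block (ALD4, -0.35 log2 per doubling, and ALD5, 0.20), 1 without the 5 arrays whose fluidics was not completed, 1 without the 0.75 g/L arrays and 1 without the 1 g/L arrays (ALD5, 0.23). Slopes turned positive for ALD3 (0.87) and the shared probe set (0.65) without the 5 arrays, and to 0.88 and 0.64 without the 0.75 g/L arrays, which are 3 of those 5. Over all probe sets 1645 passed the trend, but 874 with the run as a block, 835 without 3 g/L and 861 without 5 g/L. The F-test passed for 4 members and 3236 probe sets, but for 1 member (ALD3) and 892 probe sets without the 5 arrays, and for 1 (ALD3) and 1145 without 0.75 g/L, where ALD2, ALD4 and ALD5 gave adjusted p = 0.102, 0.0993 and 0.974.

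Leaving out 1 array at a time, 0 members passed the trend, and for all probe sets the trend count was 1248 to 1674. With the replicate number as a block, the members passing were 4, 0 and 19 for F-test, trend and pairs, and 33 probe sets passed at 5 against 3 g/L, against 68 in the fit without it. The count at 5 against 3 g/L ranged from 10 to 104 and that at 1.5 against 1 g/L from 3 to 73. With the session as a block, 844 rather than 2599 passed at 1 against 0.75 g/L. For ALD5 the differences from 0.75 g/L did not pass with the run as a fixed block at 1.5, 3 and 5 g/L (0.39, 0.48 and 0.36 log2). For ALD2 the same block ended the call at 1.5 g/L (-0.75, adjusted p = 0.468). Pairs with 1 g/L took the run as a random block instead, because the 1 g/L arrays were a run of their own. That fit cannot separate the run from the concentration, so it is no check of those pairs. A filter at the 50th percentile left ALD2 out. ALD2 lay near background from 1 to 3 g/L, which limits what its signal can show there.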

Other observations

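ALD3 was one of 52 probe sets, 47 of them with 1 gene symbol, that were lower at 1 than at 0.75 g/L and higher at 5 than at 3 g/L in limma (adjusted p under 0.05 in both). They made up 85.2% of the 61 probe sets higher at 5 than at 3 g/L and 4.91% of the 1060 lower at 1 than at 0.75 g/L. These comparisons share no array, but both use the spread that 1 fit gave each probe set, so their calls are not independent. Over all probe sets tested, 15.2% were lower at 1 than at 0.75 g/L and 0.877% higher at 5 than at 3 g/L. The set was formed after the values were seen. Leaving out 1 array at a time, it held 21 to 46 probe sets, 21 to 42 of them among the 52, and with the replicate number as a block 29. These were 80.7% to 95.8% and 90.6% of the probe sets then higher at 5 than at 3 g/L, and ALD3 was in the set each time. The SPT15 3'/5' ratio had its highest group medians at 0.75 and 5 g/L too (ranges 4.19 to 5.26 and 4.44 to 6.90, against 2.81 to 4.38 between), and its part in this pattern was not tested. By the size of the rise at 5 g/L, ALD3 stood 4th of the 52, after YCL048W-A (3.18 log2), the stress gene GRE1 (3.18) and SPG4, a gene known from stationary phase (2.24). The set also held HXT5, a hexose transporter known from slow growth (1.93), SIP18 (1.86) and NQM1 and TKL2, a transaldolase and a transketolase gene (1.69 and 1.77).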
